A study of Sus scrofa with 6 samples.

Results

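KERA encodes keratocan, a member of the small leucine-rich proteoglycans (SLRPs). The set described here holds KERA and its relatives LUM (lumican), DCN (decorin), BGN (biglycan), FMOD (fibromodulin), ASPN (asporin), PRELP (prolargin), EPYC (epiphycan), OMD (osteomodulin) and OGN (osteoglycin). Of these 10 genes, 9 were found by identifier among the 25149 genes listed, and OGN was not matched. KERA was chosen by its log2 fold change between complement and baseline NPSC, which held rank 3 from the highest among 17512 genes tested, and the others were taken because they belong to the family. At that end of the ranking PTGS2 lay just above KERA at 3.53, KERA stood at 3.36 and NR4A3 lay just below at 2.97. The difference in KERA between the conditions is therefore given as a description, with no test.

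The cells were neonatal pig Sertoli cells (NPSC), isolated by enzyme digestion and filtration from the testes of wild-type Duroc-Landrace piglets, with testes of littermates handled together. Both conditions were grown as monolayers in DMEM with 10% fetal bovine serum (FBS). Baseline NPSC (3 plates) then received more DMEM, and complement NPSC (3 plates) were held for 90 min in a 1:1 mixture of medium and pooled human AB serum whose complement had been preserved. No plates with heat-inactivated serum were sequenced, so complement and the other constituents of human serum cannot be told apart. Each plate gave 1 library of bulk RNA, and the sources used here do not tie plates to litters, so p-values measure only the spread between these plates.

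SLRPs are secreted core proteins built from repeats rich in leucine, to which sugar chains are attached. Decorin, biglycan and asporin form one class and carry chondroitin or dermatan sulfate (asporin carries no chain), while fibromodulin, lumican, keratocan, osteomodulin and prolargin form another whose members often carry keratan sulfate. They bind collagen fibrils and set fibril width and spacing, and keratocan is best known from the stroma of the cornea. Several of them also touch complement: decorin and biglycan bind C1q and dampen the classical pathway, fibromodulin and osteomodulin can activate it, and prolargin limits assembly of the membrane attack complex. In the testis, SLRPs are mainly products of the peritubular and interstitial matrix.

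Counts on genes ranged from 3641518 to 8371923 per library, and each complement NPSC library held fewer than each baseline NPSC library. Reads on 48 odorant receptor genes, taken as largely silent in these cells, gave a density of background counts per base of exon. In CPM, counts scaled to library size, per kilobase of exon this density was 2.12, 1.33 and 1.30 in baseline NPSC replicates 1 to 3, and 3.51, 3.85 and 1.68 in complement NPSC replicates 1 to 3. Multiplied by the exon length of a gene it gives an expected background count, which is an average and does not hold for every gene. Among Sertoli cell markers, 9 of 12 were in the files and all 9 were counted above 2 times this background over the 6 libraries, with a summed level of 1453 to 1769 CPM in baseline NPSC and 986 to 1147 CPM in complement NPSC. Markers of peritubular myoid cells were also high, at 2830 to 4247 CPM in baseline NPSC and 2290 to 4259 CPM in complement NPSC over 7 of 8 markers, with MYH11 listed at 0. The Leydig cell markers (5 of 7 in the files, CYP11A1 listed at 0) summed to 999 to 1185 CPM at baseline and 746 to 789 CPM after complement, so neither the Sertoli nor the Leydig ranges overlapped between the conditions. MYH11 and CYP11A1 are listed on scaffolds outside the numbered chromosomes, with 0 counts in all 6 libraries. Whether these zeros mean no expression was not tested. All 4 tested Leydig markers were lower in every complement library, where 8.14% of all tested genes were, and 2 of them had an unadjusted p under 0.05. The Sertoli markers did not move together: 5 were lower and 2 higher at an unadjusted p under 0.05, where 15.2% of all tested genes passed in either direction. In every complement library 4 of the 9 Sertoli markers were lower and 1 higher, beside 8.14% and 8.95% of all tested genes. None of the 9 was called by edgeR (0.103% of all tested genes) or DESeq2 (0.332% of the genes it adjusted), with INHA at a log2 fold change of -0.73 and DHH and KRT18 at 0.63 and 0.61. In bulk samples, fewer cells of a type and less RNA per cell cannot be told apart.

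At baseline the SLRP transcripts of these cultures were mostly those of BGN. Compared per kilobase of exon, BGN made up 62.3% to 66.0% of the summed level of the 9 genes in the baseline libraries, and BGN, DCN, FMOD and LUM together made up 93.02% to 96.9%. In the complement libraries the same 4 genes made up 87.0% to 92.5%. KERA contributed 0.102% to 0.229% of that sum at baseline. After complement it contributed 1.89%, 0.479% and 2.05% in replicates 1, 2 and 3. Comparisons between genes rest on the listed exon lengths, from 963 bp for EPYC and 1062 bp for KERA to 5621 bp for OMD. Whether each length covers the full transcript was not tested.

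The order of levels at baseline, in CPM per kilobase, was BGN at 357 ± 40.8 (SD, n = 3), DCN at 98.2 ± 34.7, FMOD at 37.7 ± 3.54, LUM at 33.1 ± 5.43, PRELP at 16.5 ± 6.24, OMD at 4.77 ± 0.688, ASPN at 4.77 ± 0.863, EPYC at 1.69 ± 0.950 and KERA at 0.862 ± 0.236. The baseline libraries of FMOD and LUM overlapped, as did those of OMD and ASPN and those of EPYC and KERA, and the other neighbours in this order did not overlap. Among all tested genes BGN stood at percentile 99.3 by mean level per length over the 6 libraries and DCN at 96.7, whereas KERA stood at 22.1 and EPYC at 3.40. After complement the order was BGN (317 ± 116, SD, n = 3), DCN (104 ± 63.0), FMOD (48.9 ± 27.2), PRELP (30.1 ± 3.22), LUM (27.5 ± 4.48), KERA (8.85 ± 7.19), ASPN (6.62 ± 1.25), OMD (5.74 ± 2.01) and EPYC (1.81 ± 0.661). Here KERA spread widely: complement replicate 2, at 2.02 CPM per kilobase, lay within the range of EPYC. Complement replicate 3, at 16.4, lay above every library of ASPN and OMD and below every library of LUM.

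**Figure D1:**
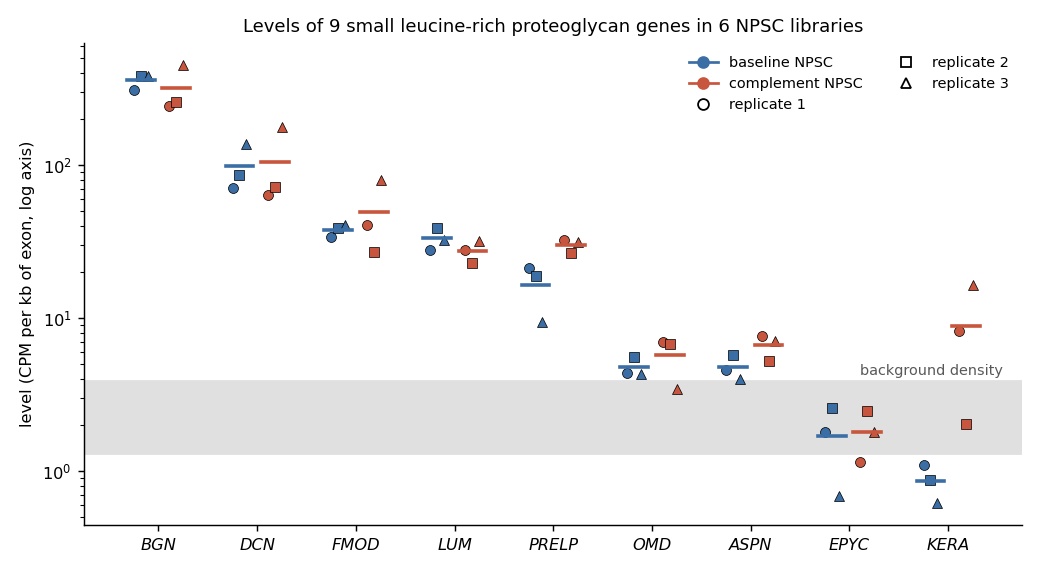
Level of each gene in each library, in CPM per kilobase of exon on a log axis, for baseline NPSC (blue) and complement NPSC (red), with marker shapes for the replicates, horizontal lines for group means and a grey band from the lowest to the highest background density of the 6 libraries. BGN, DCN, FMOD and LUM lie well above the band, EPYC lies in or under it, and KERA lies under it at baseline and spreads from 2.02 to 16.4 after complement.

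KERA spans bases 96275119 to 96280110 of chromosome 5 on the plus strand, in the unnamed build of the files, with exons at 96275119 to 96276004 and 96279935 to 96280110 (1062 bp in all). It was counted 8, 6 and 5 times in baseline replicates 1, 2 and 3, and 39, 9 and 100 times in complement replicates 1, 2 and 3. Scaled to the library, these were 1.16, 0.929 and 0.659 CPM at baseline and 8.68, 2.15 and 17.4 CPM after complement. All 3 complement libraries lay above all 3 baseline libraries, but replicates 1 and 3 were far above them and replicate 2 was not. The exact 95% Poisson intervals, which cover counting error only, were 6.17 to 11.9 CPM for complement replicate 1, 0.982 to 4.08 for replicate 2 and 14.1 to 21.1 for replicate 3. The interval of complement replicate 2 overlapped those of all 3 baseline libraries, the highest of which ran from 0.501 to 2.29 CPM, and the intervals of replicates 1 and 3 overlapped no other interval of KERA.

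The expected background of KERA was 15.5, 9.13 and 10.5 counts in the baseline libraries and 16.7, 17.2 and 10.3 in the complement libraries. KERA was counted at 0.515, 0.657 and 0.475 times that value at baseline, and at 2.33, 0.525 and 9.74 times that value in complement replicates 1, 2 and 3. Counts above the expected background were thus seen in complement replicates 1 and 3, where 22.3 and 89.7 counts were left after subtraction, and in none of the other 4 libraries. KERA averaged 0.916 ± 0.251 CPM at baseline (SD, n = 3) and 9.40 ± 7.64 CPM after complement (SD, n = 3), and the highest complement library held 8.09 times the level of the lowest. The log2 fold change of 3.36 came down to 2.53 without complement replicate 3, the lowest of the 13 settings in which KERA could be fitted, and it went up to 3.80 without complement replicate 2. KERA passed the filter on low counts through the complement libraries, so a difference between the groups was built into its passing. The study also measured KERA by qPCR and does not list it among the genes with a significant change in that assay.

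**Figure D2:**
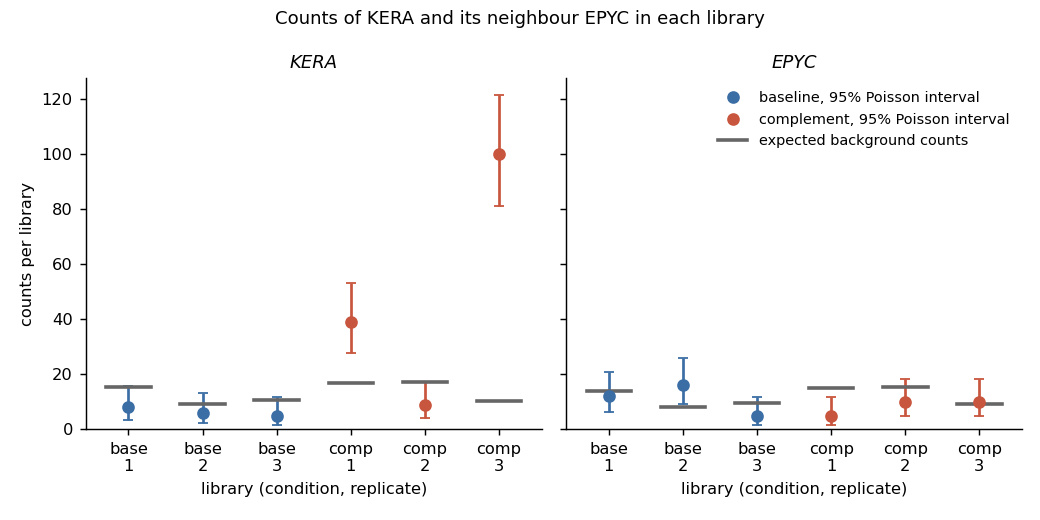
Counts of KERA (left) and of EPYC, the next listed gene downstream (right), in each baseline (base, blue) and complement (comp, red) library, with exact 95% Poisson intervals as bars and the expected background counts as grey lines. KERA stands above its background line only in complement replicates 1 (39 counts) and 3 (100 counts), while EPYC ranges from 5 to 16 counts with no such separation.

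The chromosome 5 neighbours of KERA are its own relatives. DCN (96109666 to 96143719), LUM (96175704 to 96184752), KERA and EPYC (96320060 to 96355948) follow each other on the plus strand, and no other listed gene lies between them. LUM ends 90367 bp before KERA and EPYC starts 39950 bp after it. Within 1 Mb of KERA the files list 5 other genes, the remaining 2 being ENSSSCG00000000919, 83534 bp downstream, and ENSSSCG00000030634, with 0 to 2 counts per library.

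LUM, lumican, is the corneal partner of keratocan and is widely made by fibroblasts. It was at 97.3, 135 and 113 CPM in baseline replicates 1 to 3 and at 97.04, 79.4 and 110 CPM in complement replicates 1 to 3. The groups overlapped, and the log2 fold change was -0.26 with an SE of 0.21 (edgeR adjusted p = 0.499). Adjusted p come from the quasi-likelihood fit over all tested genes, with Benjamini-Hochberg adjustment. Set beside LUM in the same library, the level of KERA per kilobase was 3.90%, 2.25% and 1.91% of that of LUM at baseline, and 29.3%, 8.85% and 51.5% after complement. These percentages rest on listed exon lengths of 1062 bp for KERA and 3476 bp for LUM.

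DCN, decorin, binds collagen and TGF-beta. It was at 106, 128 and 205 CPM in baseline replicates 1 to 3 and at 94.8, 107 and 263 CPM in complement replicates 1 to 3, so that replicate 3 was the highest in both conditions and the groups overlapped. The log2 fold change was 0.09 with an SE of 0.35 (edgeR adjusted p = 0.901), and without complement replicate 3 it was -0.57 (adjusted p = 0.121). EPYC, epiphycan, is a cartilage member. It was counted 12, 16 and 5 times in baseline replicates 1 to 3 and 5, 10 and 10 times in complement replicates 1 to 3, against an expected background of 14.1, 8.28 and 9.54 and of 15.2, 15.6 and 9.31 counts. Over the 6 libraries the expected background came to 124% of its counts, so EPYC transcripts could not be told from background at this depth, although baseline replicate 2 and complement replicate 3 lay above their own values. Its log2 fold change was 0.11 with an SE of 0.61 (edgeR adjusted p = 0.929). ENSSSCG00000000919, which has no symbol in the tables used, was at 4.69 ± 1.21 CPM at baseline (SD, n = 3) and 7.88 ± 3.17 CPM after complement (SD, n = 3), with overlapping groups and a background share of 44.3% of its counts.

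**Figure D3:**
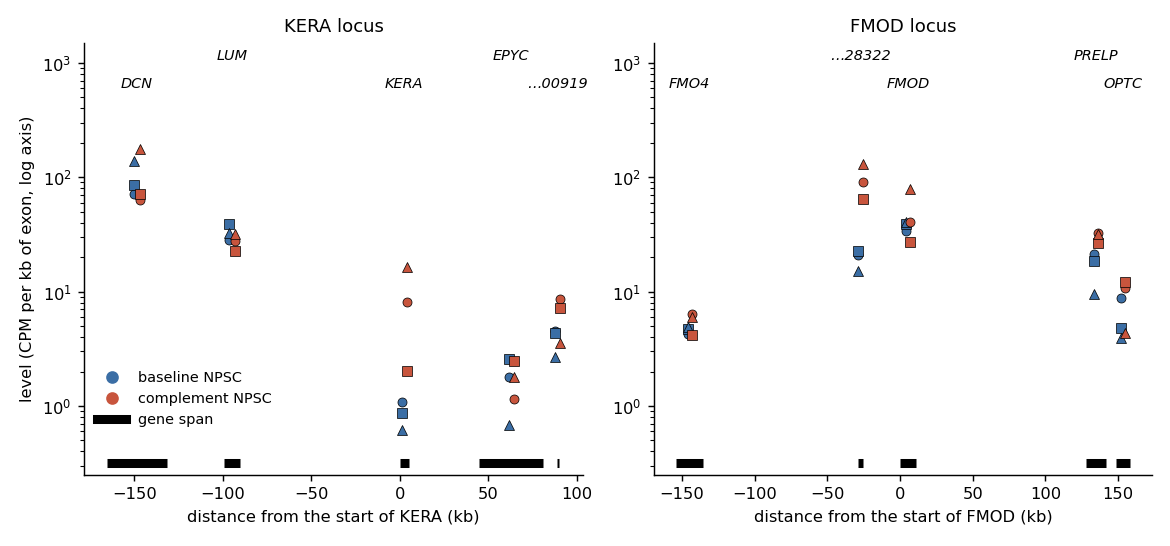
Level per kilobase of exon (log axis) of genes around KERA (left) and around FMOD (right), placed by their distance in kb from the start of that gene, for baseline (blue) and complement (red) libraries, with circles, squares and triangles for replicates 1, 2 and 3 and black bars for the gene spans, genes without a symbol being labelled by the last digits of their identifiers. Around KERA the baseline and complement libraries of DCN, LUM and EPYC overlap. Those of KERA, which was chosen by this difference, do not, although its complement replicate 2 (9 counts) lies under its expected background of 17.2 counts. Of the genes drawn around FMOD the libraries of ENSSSCG00000028322 and PRELP are apart.

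The 8 members other than KERA were tested in the fit across all genes. By edgeR, 0 of the 8 had an adjusted p under 0.05 with a log2 fold change beyond 1 in size, where 0.103% of all tested genes did, and 1 of the 8 (PRELP) had an unadjusted p under 0.05, where 15.2% of all tested genes did. The DESeq2 Wald test gave no adjusted p for EPYC and called 0 of the other 7, against 0.332% of the genes it adjusted. Of these 8 genes, 6 had a positive and 2 a negative log2 fold change, with a median of 0.19 beside 0.02 over all tested genes. All 3 complement libraries were above all 3 baseline libraries for 1 of the 8, where 8.95% of all tested genes did so, and below them for 0 of the 8, where 8.14% did. An exact permutation test of 3 plates against 3 cannot give a p below 0.1.

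**Figure D4:**
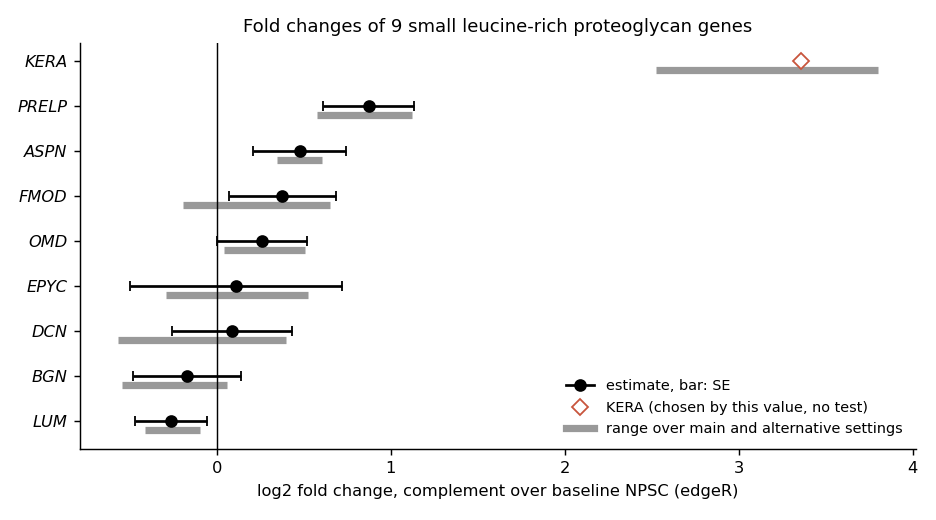
Log2 fold changes of the 9 genes in complement over baseline NPSC from edgeR (points), with SE as bars for the 8 tested genes, KERA as an open diamond with no error bar, and grey bars for the range over the main and alternative settings. The 8 tested genes lie between -0.26 and 0.87, and the grey bars of DCN, FMOD, BGN and EPYC cross 0.

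PRELP, prolargin, links the matrix to basement membranes and is the relative that lay next after KERA in fold change. It was at 28.3, 24.8 and 12.5 CPM in baseline replicates 1 to 3 and at 43.0, 35.1 and 41.9 CPM in complement replicates 1 to 3. Each complement library was higher than each baseline library, and baseline replicate 3 was the lowest of the 6. The mean went from 21.9 ± 8.27 CPM (SD, n = 3) to 40.0 ± 4.27 CPM (SD, n = 3), a log2 fold change of 0.87 with an SE of 0.26 (edgeR adjusted p = 0.267) that did not pass the thresholds. Background made up 9.61% of its counts. Without baseline replicate 1 PRELP was called, with a log2 fold change of 1.10 (adjusted p = 0.0379, edgeR), and without baseline replicate 3 the value was 0.58 (adjusted p = 0.676).

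FMOD, fibromodulin, steers the thickening of collagen fibrils. It lies on chromosome 9 from 70356564 to 70367608 on the minus strand, 116974 bp from PRELP (70484582 to 70498199, plus strand). It was at 114, 132 and 137 CPM in baseline replicates 1 to 3 and at 136, 91.4 and 269 CPM in complement replicates 1 to 3. Complement replicate 3 stood far above the other 5 libraries, which overlapped. The log2 fold change was 0.38 with an SE of 0.31 (edgeR adjusted p = 0.509), and it was -0.19 (adjusted p = 0.469) without complement replicate 3.

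On the other side of FMOD, 25164 bp away, lies ENSSSCG00000028322, an identifier that the study pairs with BTG2, an antiproliferative immediate early gene. It was at 52.7 ± 10.6 CPM at baseline (SD, n = 3) and 256 ± 92.0 CPM after complement (SD, n = 3), with a log2 fold change of 2.28 with an SE of 0.28 (edgeR adjusted p = 0.00229). This was the only gene called among the 36 listed within 250 kb of FMOD, PRELP, BGN, OMD or ASPN that are not members, 32 of which were tested, and 0.103% of all tested genes were called. Of these 32 genes 2 were higher in every complement library, this one and FMO2 (2.07 CPM at baseline and 4.51 CPM after complement, adjusted p = 0.307, edgeR), whose expected background came to 179% of its counts, and 5 were lower, beside 8.95% and 8.14% of all tested genes. OPTC (opticin), an SLRP of the eye that lies 6888 bp from PRELP, was at 7.50 ± 3.35 CPM at baseline (SD, n = 3) and 11.7 ± 5.41 CPM after complement (SD, n = 3), and its groups overlapped.

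BGN, biglycan, a pericellular proteoglycan that also signals through TLR2 and TLR4, lies on chromosome X from 141845599 to 141858874. It was at 745, 920 and 908 CPM in baseline replicates 1 to 3 and at 585, 618 and 1084 CPM in complement replicates 1 to 3. Complement replicates 1 and 2 were the lowest of the 6 libraries and complement replicate 3 the highest, so the groups overlapped. The log2 fold change was -0.17 with an SE of 0.31 (edgeR adjusted p = 0.768), and it was -0.54 (adjusted p = 0.0798) without complement replicate 3. KERA, DCN, FMOD and BGN were all at their highest in complement replicate 3. The summed peritubular myoid markers were at 2300, 2290 and 4259 CPM in complement replicates 1 to 3 and at 2830, 3048 and 4247 CPM in baseline replicates 1 to 3. Fibroblast markers (4 of 8 in the files, none at 0) summed to 264, 270 and 496 CPM and to 301, 369 and 488 CPM in the same libraries. Endothelial markers (5 of 7 in the files, none at 0) summed to 495, 382 and 862 CPM in complement replicates 1 to 3 and to 623, 511 and 800.4 CPM in baseline replicates 1 to 3. Complement replicate 3 also had the lowest background density of its condition, and the part of cell makeup or background in the SLRP values was not tested.

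ASPN, asporin, and OMD, osteomodulin, lie on chromosome 3 on the minus strand, ASPN from 43350287 to 43377535 and OMD from 43327319 to 43339413. Both sit inside the span of CENPP on the plus strand (43260712 to 43491878), and the strand setting of the counting is not given in the sources used here, so reads of overlapping genes cannot be told apart. ASPN was at 12.03, 14.9 and 10.4 CPM in baseline replicates 1 to 3 and at 19.8, 13.6 and 18.4 CPM in complement replicates 1 to 3. Complement replicate 2 fell within the baseline range, and the log2 fold change was 0.48 with an SE of 0.27 (edgeR adjusted p = 0.382). OMD was at 24.8, 31.3 and 24.4 CPM in baseline replicates 1 to 3 and at 39.4, 38.2 and 19.3 CPM in complement replicates 1 to 3. Here complement replicates 1 and 2, the libraries with the highest background density, were the highest and complement replicate 3 the lowest, and the log2 fold change was 0.26 with an SE of 0.26 (edgeR adjusted p = 0.579). Expected background made up 38.2% of the counts of ASPN and 41.7% of those of OMD. With it subtracted, OMD was at 3.18 ± 0.980 CPM per kilobase at baseline (SD, n = 3) and 2.73 ± 0.893 after complement (SD, n = 3), the opposite order of means, and ASPN was at 3.18 ± 1.03 and 3.61 ± 2.05.

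The genes whose pattern over the 6 libraries was most like that of KERA were ENSSSCG00000014085, ENSSSCG00000028508, ENSSSCG00000009953, ABL2 and DUSP1, with Pearson's r on log2 CPM of 0.993, 0.992, 0.989, 0.982 and 0.980. They were picked as the 5 highest of 17511 genes, of which 108 (0.617%) had an r over 0.9, and all share the same 6 libraries. The first 3 averaged 3.59, 2.16 and 52.5 CPM at baseline and 6.81, 4.31 and 64.2 CPM after complement. Their log2 fold changes were 0.93, 1.00 and 0.29, beside 3.36 for KERA, so a high r did not mean a change of similar size. DUSP1, a phosphatase that switches off MAP kinases, was at 179, 173 and 152 CPM in baseline replicates 1 to 3 and at 287, 238 and 392 CPM in complement replicates 1 to 3. ABL2, a tyrosine kinase, was at 85.4, 91.6 and 85.4 CPM and at 131, 105 and 171 CPM in the same libraries. Replicate 3 was the highest and replicate 2 the lowest of complement NPSC for both, an order that follows from how they were picked, and KERA itself lay under its expected background in 4 of the 6 libraries. Among the relatives r was 0.87 for ASPN, 0.79 for PRELP and 0.68 for FMOD (ranks 168, 360 and 840), and between -0.18 and 0.25 for the other 5. These r use the values by which KERA was chosen, so they are a description only.

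Other genes of the same matrix were counted from 7 lists: SLRP-like genes, other proteoglycan core proteins, enzymes of both kinds of sugar chain, collagens, ligands and receptors, and proteases that cleave SLRPs. Of their 105 genes 85 were tested. By edgeR 0 of the 85 were called (0.103% of all tested genes), and 18 (21.2%) had an unadjusted p under 0.05 (15.2% of all tested genes). Every complement library was higher than every baseline library for 7 of them (8.24%, beside 8.95% of all tested genes) and lower for 13 (15.3%, beside 8.14%). Of keratan sulfate synthesis genes, 6 of 12 were tested, the median log2 fold change being 0.002, and 0 had an unadjusted p under 0.05. The highest were ST3GAL1 (201 ± 8.42 CPM at baseline and 165 ± 27.5 after complement, SD, n = 3), FUT8 (60.9 ± 12.2 and 50.8 ± 19.04) and B4GALT4 (24.0 ± 0.154 and 24.8 ± 3.16). Of chondroitin and dermatan sulfate synthesis genes, 17 of 21 were tested, with a median of -0.11. Of these 17, 2 were lower at an unadjusted p under 0.05, where 15.2% of all tested genes passed in either direction, and 5 were lower in every complement library, where 8.14% of all tested genes were. Their highest genes were CHSY1, a chain polymerase (197 ± 24.3 and 184 ± 63.0 CPM), CHPF2 (177 ± 5.65 and 129 ± 28.0) and CHST3, a sulfotransferase (120 ± 10.9 and 104 ± 17.2).

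Of the collagens and their partners, 11 of 12 were tested, with a median log2 fold change of 0.09. COL1A2, a chain of type I collagen, was at 1725 ± 646 CPM at baseline (SD, n = 3) and 2914 ± 65.0 CPM after complement (SD, n = 3), higher in every complement library, with a log2 fold change of 0.76 with an SE of 0.37 (edgeR adjusted p = 0.340). COL3A1 (2142 ± 560 and 1920 ± 1196 CPM) and COL12A1 (755 ± 52.7 and 753 ± 356 CPM) had overlapping groups, with log2 fold changes of -0.16 and -0.004. The 13 tested ligands and receptors of SLRPs had a median of 0.08, and the highest were ITGA2, an integrin chain that binds collagen (236 ± 35.5 and 312 ± 59.6 CPM), KDR (233 ± 39.8 and 204 ± 94.1) and TGFB2 (111 ± 12.2 and 90.5 ± 17.4). The 11 tested proteases had a median of 0.03, and the highest were MMP2 (289 ± 52.8 and 272 ± 87.7 CPM), BMP1, which matures the SLRP core proteins (258 ± 10.8 and 263 ± 75.9), and MMP14 (193 ± 36.6 and 154 ± 26.4). The 8 other SLRP-like genes had a median of 0.47, with CHAD, chondroadherin, at 22.4 ± 4.74 and 42.2 ± 24.1 CPM, PODN, podocan, at 29.1 ± 7.37 and 41.03 ± 8.21, and TSKU, tsukushi, at 76.0 ± 5.29 and 55.2 ± 8.01. None of these 3 passed the thresholds (adjusted p = 0.281, 0.323 and 0.301, edgeR).

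The 19 other proteoglycan core proteins tested had a median log2 fold change of -0.23. HSPG2, perlecan of basement membranes, was at 1741 ± 76.9 CPM at baseline (SD, n = 3) and 1384 ± 698 CPM after complement (SD, n = 3), CD44 at 604 ± 225 and 603 ± 90.9, and GPC1, a glypican, at 676 ± 42.8 and 488 ± 139. DESeq2 called 1 gene of this list (0.332% of all the genes it tested), GPC3, named here after its values were seen, at 7.15 ± 1.68 CPM at baseline (SD, n = 3) and 17.4 ± 1.22 CPM after complement (SD, n = 3). The log2 fold change was 1.28 with an SE of 0.28, and the adjusted p was 0.169 by edgeR and 0.0396 by DESeq2, with background at 32.1% of its counts.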

How the data were processed

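The members and gene lists were chosen with earlier results of these data known. Bulk RNA sequencing of 6 libraries, 3 baseline NPSC and 3 complement NPSC, was used. For each library the authors deposited a table of unnormalized counts, with exon coordinates and summed exon length. The submitters' processing notes name Trimmomatic 0.36, STAR 2.5.2b and featureCounts of Subread 1.5.2. The genome build and strand setting are not given in the sources used here. Symbols came from tables matched by Ensembl identifier (11804 of 25149).

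Counts were filtered with filterByExpr, normalized by TMM and tested with the quasi-likelihood F-test of edgeR 4.0.16 in R 4.3.3, without covariates. Adjustment was by Benjamini-Hochberg over 17512 genes, and a call needed a log2 fold change beyond 1 at an adjusted p under 0.05. The SE is the log2 fold change over the root of F. CPM use TMM-scaled library sizes, and likeness used log2 CPM with a prior count of 2. Expected background is the count density over 48 odorant receptor genes (45945 bp), multiplied by exon length. The genes named are the members, their neighbours within 1 Mb of KERA or 250 kb of another member (by symbol or only in counts), the 3 highest genes and all called genes of each list, and the 5 genes most like KERA. DHH, KRT18, INHA, GPC3, ALDH3A1, ALDH1A1 and the ADAMTS4, ADAMTS5, MMP9 and MMP13 proteases were named after their values were seen. Alternatives were DESeq2 1.42.0, other normalizations, no filter, a replicate block, each library left out, and background subtraction or a background covariate. On simulated counts of 17512 genes, 92.5% of 200 genes changed by a log2 fold change of 2 were called by edgeR and 87.5% by DESeq2. Of the unchanged genes 7 and 5 were called. The simulated libraries had no unequal background and no outlying library. PRELP, the highest of the tested members, stood at 0.87, so these shares do not give the power to call the members. Plots were drawn with matplotlib 3.10.9.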

Additional observations from a re-analysis of the deposited data

How the results depend on the processing

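LUM kept a negative and ASPN, PRELP and OMD a positive fitted log2 fold change in every setting run, although the mean level of OMD after background subtraction was lower in complement NPSC (2.73 against 3.18 CPM per kilobase). KERA, whose sign its choice fixed, was positive wherever it could be fitted, and after background subtraction KERA and EPYC no longer passed the filter. Counts of called genes were 18 in the main fit, 53 with DESeq2, 31 without a filter, 31 after background subtraction, 56 with the background covariate, and 9 to 1063 with 1 library left out, lowest without baseline replicate 2 and highest without complement replicate 3, and 298 without baseline replicate 1. With 1 library left out, 0 to 1 of the 8 members were called, the 1 being PRELP without baseline replicate 1. Members with all complement libraries higher were 2 in the main scaling (PRELP, and KERA, which was chosen by this difference), where 8.95% of all tested genes were. They were 2 with DESeq2 size factors, 3 with CPM by library total and 1 after background subtraction, which left 0 counts of KERA in complement replicate 2. The share over all tested genes was not taken under these other scalings, so their counts are no result about the members. Background subtraction moved 7 of 18 levels per condition by more than 1 SD, those of KERA at baseline and of ASPN, EPYC and OMD in both conditions. The sign of BGN turned to 0.0622 after background subtraction and 0.0455 with the covariate. With 1 library left out, DCN ranged from -0.57 to 0.40, FMOD from -0.19 to 0.65 and EPYC from -0.29 to 0.52. The cause of these changes was not tested.

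Deviations of libraries with the same number correlated at 0.456, 0.03 and 0.482 for numbers 1, 2 and 3. Those with different numbers ranged from -0.501 (baseline replicate 1 with complement replicate 3) to 0.284 (baseline replicate 1 with complement replicate 2). Baseline replicate 2 was near 0 with both complement replicate 2 and complement replicate 3 (0.066). The sources used here do not say whether plates with the same number share a litter. The main fit therefore did not pair the libraries, and its p-values take no account of any pairing. A replicate block gave 728 called genes and 0 of the 8 members, turned DCN to -0.0127, and gave PRELP a log2 fold change of 0.93 (adjusted p = 1.56e-05, edgeR), under the fold threshold. At these depths KERA at baseline and EPYC in both conditions could not be told from background over the libraries of a condition.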

Other observations

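ENSSSCG00000008074, without a symbol in the tables used, lies 6666 bp from OMD on the same strand of chromosome 3 (43317804 to 43320653). It had 9, 18 and 31 counts in baseline replicates 1 to 3 and 13, 11 and 31 counts in complement replicates 1 to 3, and its groups overlapped. Whether it is OGN, the member not matched by identifier, is not known here. ECM2, an SLRP-like gene on the far side of ASPN, was at 11.7 ± 1.45 CPM at baseline (SD, n = 3) and 12.04 ± 0.758 CPM after complement (SD, n = 3).

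Among the proteases that cleave SLRPs, ADAMTS4, an aggrecanase, was at 66.1 ± 23.2 CPM at baseline (SD, n = 3) and 139 ± 53.3 CPM after complement (SD, n = 3), with a log2 fold change of 1.07 with an SE of 0.28 (edgeR adjusted p = 0.261). MMP9, a gelatinase, was at 181 ± 79.0 and 78.8 ± 48.4 CPM, with a log2 fold change of -1.21 with an SE of 0.43 (edgeR adjusted p = 0.272). Of the 11 proteases tested, 2 were higher and 2 lower at an unadjusted p under 0.05, where 15.2% of all tested genes passed in either direction, and the other 2 were MMP13, a collagenase, and ADAMTS5, another aggrecanase. MMP13 was at 6.09, 23.7 and 50.9 CPM in baseline replicates 1 to 3 and at 122, 157 and 3.30 CPM in complement replicates 1 to 3, so that complement replicate 3 was the lowest of all and the groups overlapped (log2 fold change 1.79, edgeR adjusted p = 0.314). ADAMTS5 was at 36.1 ± 3.66 and 26.1 ± 0.988 CPM (log2 fold change -0.47, edgeR adjusted p = 0.304). ADAMTS4 was higher in every complement library, and MMP9 and ADAMTS5 were lower, beside 8.95% and 8.14% of all tested genes. None of these 4 passed the thresholds, and all were named after their values were seen. The remaining marker lists summed to 64.6 to 89.1 CPM at baseline and 55.9 to 86.6 CPM after complement for macrophages and to 44.4 to 50.8 and 41.0 to 64.9 CPM for germ cells. Of the 6 corneal keratocyte markers 3 were in the files: KERA, ALDH3A1 at 11.4 ± 9.44 CPM at baseline (SD, n = 3) and 14.4 ± 3.33 CPM after complement (SD, n = 3), and ALDH1A1 at 0.782 ± 0.396 and 1.67 ± 0.834 CPM, with expected background at 129% of its counts.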
